A study of Homo sapiens with 16 samples.

Results

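The genes described here are CDH2 (N-cadherin), CDH11 (cadherin-11), VIM (vimentin) and the transcription factor genes SNAI1 (SNAIL), SNAI2 (SLUG) and ZEB1, all tied to epithelial-mesenchymal transition (EMT). They were chosen by name, and 6 of the 6 names were found among the 14857 genes listed. Their RNA was measured by bulk RNA sequencing in MDA-MB-231, a human triple-negative breast cancer line in which tristetraprolin (TTP) was re-expressed from a tet-off system. TTP, which ZFP36 encodes, binds AU-rich elements of messenger RNAs and speeds their decay. The control arm was a pair of clones with the empty plasmid, EV_A and EV_B, and the other arm was a pair with the TTP plasmid, TTP_E11 and TTP_H3; each clone gave 4 biological replicates, or 16 libraries in all.

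All 4 clones carried the tet-off system and were kept in G418 at 400 µg/mL and hygromycin B at 100 µg/mL, and doxycycline at 2 µg/mL, which silences the introduced gene, is stated for the TTP cells alone. Drugs were removed for 24 h or longer ahead of an experiment. Each arm was 2 clones of 1 line, so TTP, clone and doxycycline history cannot be told apart. The p-values of the main limma test reflect only how replicate cultures of the same clone varied. Those of the permutation test, the 2-group model and the reads summed per clone also take in differences between clones of an arm. Samples were grouped by library name, since 7 titles of libraries named TTP say EV. ZFP36 was at 213.5 to 282.2 normalized counts in the 8 EV libraries and at 10160.1 to 15041 in the 8 TTP libraries, which follows the library names. Replicate 3 of TTP_H3 and replicate 4 of EV_B lay farthest from the other libraries of their clones, and values that change a call or a sign without either are given beside the result. In bulk RNA, fewer cells with a transcript and less of it per cell cannot be told apart.

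In EMT, epithelial cells lose cell-cell junctions built on E-cadherin and take on features of mesenchymal cells, among them N-cadherin, cadherin-11 and a vimentin filament network. SNAIL, SLUG and ZEB1 are zinc finger repressors that bind E-box sequences in epithelial genes such as CDH1. MDA-MB-231 is known as a line with a mesenchymal profile. The listed markers of that profile, VIM, CD44, CAV1, MSN and AXL, were present in every library. Their sum was 113488 to 117289 normalized counts in EV and 86447 to 91278 in TTP libraries. This sum includes VIM, itself a gene described here, and its members differed. In EV_A, EV_B, TTP_E11 and TTP_H3, CD44 averaged 15642, 14071, 10222 and 10051, and CAV1 averaged 21065, 16721, 11900 and 10214. For MSN the means were 13172, 14897, 14096 and 14523, so the arms were interleaved. For AXL they were 32196.5, 38239.5, 30714 and 31014, with EV_A near the TTP clones. Of the receptor genes whose low level defines the triple-negative class, 1 of 3 was listed, ERBB2. It was at 2085 to 2345 normalized counts in EV and at 2437 to 2963 in TTP libraries (log2 change 0.31, limma adjusted p = 1.15e-10). CDH1 and TWIST1 were looked for by name and were not found among the 14857 genes listed.

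All values below are normalized counts, that is reads scaled by a size factor of the library. Adjusted p-values are from limma with Benjamini-Hochberg adjustment over all 14857 genes, and a change is on the log2(value + 1) scale. In TTP versus EV, the mean of 2 TTP clones against the mean of 2 EV clones, 6 of the 6 genes passed an adjusted p of 0.05, 3 higher and 3 lower. Of all genes, 70.0% passed this comparison (35.4% higher and 34.6% lower), so passing it sets no gene apart. CDH2, SNAI1 and SNAI2 were higher in TTP, and VIM, ZEB1 and CDH11 were lower. The stricter rule asked for the same sign and an adjusted p under 0.05 in each of the 4 pairs of 1 TTP clone with 1 EV clone, and 38.5% of all genes met it (19.0% higher and 19.5% lower). CDH2, VIM and ZEB1 met it, 3 of 6. These were also the 3 genes whose 8 TTP libraries did not overlap the 8 EV libraries, which held for 31.8% of all genes. By the adjusted p of the authors' deposited table, 5 of the 6 genes and 63.7% of all genes passed 0.05, CDH11 being the exception.

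**Figure D1:**
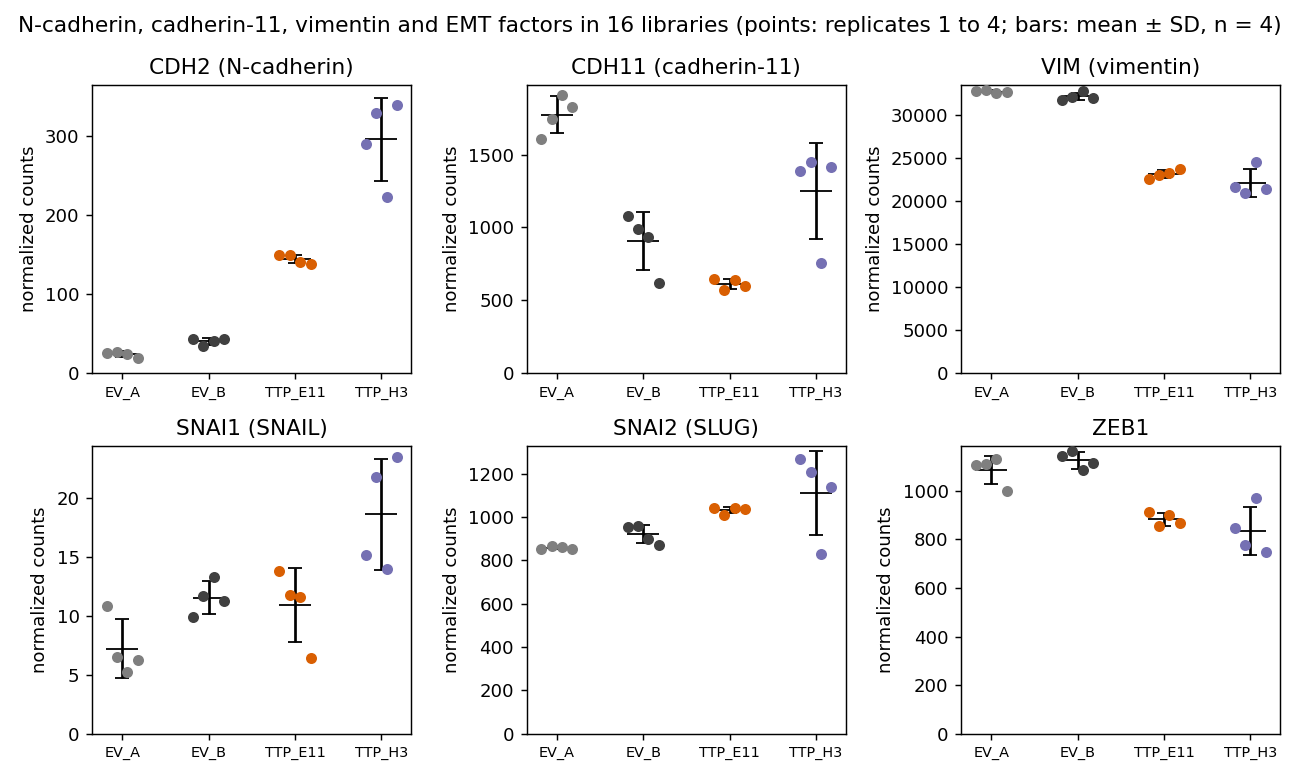
Normalized counts of the 6 genes (vertical axes, each from 0) in the 4 clones (horizontal axes), with 1 point per library and bars for mean ± SD (n = 4). CDH2 is above the EV libraries in 8 of 8 TTP libraries and VIM and ZEB1 are below them in 8 of 8, while CDH11, SNAI1 and SNAI2 overlap between the arms.

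Because TTP binds AU-rich elements, the 3′ untranslated regions of the 6 genes are shown at these motifs, from GENCODE 29 transcripts on GRCh38. The motifs searched on the sense strand were the pentamer ATTTA, the heptamer TATTTAT, which holds the pentamer, and the nonamer TTATTTATT, which holds both. Of 12480 listed genes with such a region, 69.8% held ATTTA, 32.7% held TATTTAT and 8.56% held TTATTTATT. ZEB1 (1938 bases) held 8, 2 and 1 matches, CDH11 (3850 bases) held 14, 1 and 0, and SNAI1 (830 bases) held 3, 1 and 0. SNAI2 (1203 bases) held 2 ATTTA, and CDH2 (1187 bases) and VIM (322 bases) held 1 each, with 0 of the longer motifs in these 3 genes. Among regions of similar length, 13.5% held as many TATTTAT as ZEB1 or more, 22.6% as many as SNAI1 or more and 63.3% as many as CDH11 or more. The sites below show each TATTTAT of ZEB1, CDH11 and SNAI1 and the only ATTTA of CDH2 and VIM, with the motif in capitals, 5′ to 3′ in the sense of the gene. In the second ZEB1 site the capitals mark the nonamer, inside which the heptamer lies.
ZEB1 first site, chr10:31528621-31528650, plus strand: gaaaacttttaTATTTATgtgtcttatttt
ZEB1 second site, chr10:31528650-31528679, plus strand: ttatatttctTTATTTATTacacagtgtag
CDH11 site, chr16:64946669-64946698, minus strand: tttaataacccTATTTATgatctgttgttg
SNAI1 site, chr20:49988777-49988806, plus strand: aggtacactggTATTTATatttcaaacatt
CDH2 site, chr18:27951308-27951337, minus strand: tatggataaagtATTTAcaaaacagtgaca
VIM site, chr10:17237425-17237454, plus strand: cactcctacaagATTTAgaaaaaagtttac
A match is a description of the sequence and not a measured binding site. In the averaged comparison ZEB1, CDH11 and VIM were lower in TTP, and SNAI1, SNAI2 and CDH2 were higher. Whether the motifs bear on these directions was not tested. Over all genes with such a region, 34.8% of those holding TTATTTATT were lower in all 4 clone pairs and 13.5% higher, against 20.7% and 22.0% of those lacking it; longer regions hold more matches, and the part of length in these shares was not tested.

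CDH2 encodes N-cadherin, the calcium-dependent adhesion molecule of neural and mesenchymal cells, and lies on chromosome 18 (27950966 to 28177446, GRCh38, minus strand). In replicates 1 to 4 it stood at 25.3, 26.9, 24.2 and 19.5 normalized counts in EV_A and at 42.9, 33.9, 40.9 and 43.3 in EV_B. It stood at 149.2, 149.1, 141.2 and 138.3 in TTP_E11 and at 290.7, 329.9, 223.4 and 339.4 in TTP_H3. The 4 clones did not overlap, and the lowest TTP library, at 138.3, was above the highest EV library, at 43.3. CDH2 was higher in TTP by 2.69 ± 0.0992 (SE) on the log2 scale, a 6.46-fold difference (adjusted p = 2.09e-21, higher in 8 of 8 TTP libraries). From the reads, 260 in the EV and 1755 in the TTP libraries, the ratio scaled by the size factors was 6.89 with an exact binomial 95% interval of 6.04 to 7.87, which covers counting error only. The 4 clone pairs ranged from 1.82 for TTP_E11 versus EV_B to 3.56 for TTP_H3 versus EV_A. Within the arms CDH2 also differed, by 0.72 ± 0.140 (SE) between EV_B and EV_A (adjusted p = 0.000119) and by 1.01 ± 0.140 between TTP_H3 and TTP_E11 (adjusted p = 5.46e-06).

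CDH11 encodes cadherin-11, a type II cadherin known from osteoblasts and fibroblasts, on chromosome 16 (64943753 to 65126112, minus strand). It stood at 1610.2, 1748, 1912 and 1826 normalized counts in replicates 1 to 4 of EV_A and at 1075, 990.0, 935.2 and 618.7 in EV_B. In TTP_E11 it was at 648.2, 569.9, 635.4 and 598.2, and in TTP_H3 at 1389.8, 1448, 755.1 and 1414. Replicate 4 of EV_B and replicate 3 of TTP_H3 lay below the other 3 of their clones. The order of the clone means was EV_A, TTP_H3, EV_B and TTP_E11, so the arms were interleaved. The averaged comparison gave -0.54 ± 0.146 (SE) on the log2 scale (adjusted p = 0.00506), but only 2 of 8 TTP libraries were below all EV libraries. In the authors' deposited table CDH11 had a log2 fold change of -0.52 and an adjusted p of 0.104. TTP_E11 was lower than EV by 1.03 ± 0.179 (log2 change -1.03, adjusted p = 0.000207), whereas TTP_H3 versus EV gave -0.05 with a 95% interval of -0.44 to 0.34 (adjusted p = 0.828). Without replicate 3 of TTP_H3 the latter was 0.18 (limma adjusted p = 0.267), and with replicate 4 of EV_B left out too it was 0.09 (limma adjusted p = 0.0749), so its sign turned. The contrasts within the arms were as large, at -0.998 ± 0.207 for EV_B versus EV_A (adjusted p = 0.00207; -0.83 without replicate 4 of EV_B, limma adjusted p = 0.00561) and 0.98 ± 0.207 for TTP_H3 versus TTP_E11 (adjusted p = 0.00861). Against EV_B alone, where 3 of the 6 genes and 62.2% of all genes passed, the difference of the TTP clones was -0.04 (limma adjusted p = 0.876).

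VIM encodes vimentin, the intermediate filament protein of mesenchymal cells, on chromosome 10 (17228259 to 17237593, plus strand). In replicates 1 to 4 it stood at 32799, 32918, 32555 and 32668 normalized counts in EV_A and at 31827, 32122, 32782 and 32071 in EV_B. It stood at 22601, 23088, 23292 and 23715 in TTP_E11 and at 21697, 20973, 24518 and 21413 in TTP_H3. The EV clones overlapped each other, the TTP clones overlapped each other, and the arms were apart. VIM fell by 0.52 on the log2 scale (log2 change -0.52 ± 0.0233 SE, adjusted p = 2.94e-19), that is it fell by 30.3%, and it was lower in 8 of 8 TTP libraries. The 4 clone pairs ranged from -0.57 to -0.47. No difference passed within the arms, with -0.02 (95% interval -0.09 to 0.04, adjusted p = 0.612) for EV_B versus EV_A and -0.07 (95% interval -0.13 to -0.0007, adjusted p = 0.194) for TTP_H3 versus TTP_E11. The antisense gene VIM-AS1 overlaps VIM on the other strand and had a log2 change of -0.38 ± 0.116 (adjusted p = 0.00508), with EV clone means of 129.8 and 125.3 and TTP clone means of 106.0 and 93.2. Whether counting used strand was not stated, so reads of such a pair cannot be assigned with certainty.

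SNAI1 encodes SNAIL, a short-lived zinc finger repressor of CDH1, on chromosome 20 (49982999 to 49988886, plus strand). Its mean of 12.1 normalized counts over the 16 libraries lay near the smallest mean in the table, 9.68. In replicates 1 to 4 it had 9, 7, 6 and 7 reads in EV_A and 9, 11, 14 and 12 in EV_B. There were 11, 12, 13 and 7 reads in TTP_E11 and 15, 19, 14 and 26 in TTP_H3. As normalized counts, EV_A averaged 7.19 ± 2.51 and EV_B 11.5 ± 1.40, while TTP_E11 averaged 10.9 ± 3.13 and TTP_H3 18.6 ± 4.73 (SD, n = 4). TTP_H3 was above all 8 EV libraries in 4 of 4 libraries, and TTP_E11 lay within the EV range in 3 of 4. SNAI1 was higher in TTP by 0.58 ± 0.222 (SE, adjusted p = 0.021, 5 of 8 TTP libraries above all EV libraries), with a read ratio of 1.59 and a counting interval of 1.18 to 2.16. TTP_H3 versus EV passed at 0.94 (adjusted p = 0.00297), and TTP_E11 versus EV did not, at 0.21 (95% interval -0.34 to 0.77, adjusted p = 0.507). The difference between TTP_H3 and TTP_E11 itself did not pass (0.73, adjusted p = 0.133), nor did EV_B versus EV_A (0.65, adjusted p = 0.104). Without replicate 4 of TTP_H3 the averaged comparison missed the threshold (0.52, limma adjusted p = 0.0505).

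SNAI2 encodes SLUG, the SNAIL relative typical of basal mammary cells, on chromosome 8 (48917604 to 48921740, minus strand). In replicates 1 to 4 it stood at 851.5, 868.9, 862.5 and 854.7 normalized counts in EV_A and at 954.0, 957.2, 898.1 and 872.6 in EV_B. It stood at 1042, 1010.3, 1044 and 1037 in TTP_E11 and at 1268, 1209, 831.9 and 1141 in TTP_H3. In 7 of 8 TTP libraries SNAI2 was above all EV libraries, and replicate 3 of TTP_H3 was below all of them. SNAI2 was higher in TTP by 0.26 ± 0.0646 (SE) on the log2 scale, or by 19.8% (adjusted p = 0.00188). Of the clone pairs, TTP_E11 versus EV_B did not pass (0.17, adjusted p = 0.129). Without replicate 3 of TTP_H3 the averaged difference was 0.33 (limma adjusted p = 3.76e-12).

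ZEB1 encodes a zinc finger homeobox repressor that is held in mutual repression with the miR-200 family, on chromosome 10 (31318495 to 31529814, plus strand). In replicates 1 to 4 it stood at 1106, 1109, 1130.1 and 998.5 normalized counts in EV_A and at 1144, 1165, 1085 and 1113 in EV_B. It stood at 912.8, 856.3, 899.0 and 866.4 in TTP_E11 and at 848.8, 776.7, 970.6 and 747.4 in TTP_H3. The highest TTP library, replicate 3 of TTP_H3, was below the lowest EV library, replicate 4 of EV_A. ZEB1 fell by 0.37 on the log2 scale (log2 change -0.37 ± 0.0415 SE, adjusted p = 3.1e-09), that is it fell by 22.4%, and it was lower in 8 of 8 TTP libraries. The 4 clone pairs ranged from -0.44 to -0.30, and the contrasts within the arms were 0.05 and -0.09 (adjusted p = 0.506 and 0.38). The antisense gene ZEB1-AS1, which overlaps its start on the other strand, fell as well (log2 change -0.57 ± 0.0976, adjusted p = 4.62e-06), with EV clone means of 106.3 and 106.4 and TTP clone means of 83.2 and 61.7.

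RefSeq promoter windows on GRCh38.p14, from 250 bases before to 50 after a gene start, were at hand for CDH2, VIM and ZEB1, 3 of the 6 genes. They were searched on both strands for the E-box CACCTG, whose complement is CAGGTG, the sequence that SNAIL and ZEB proteins bind. Of 35116 windows of this length 20.6% held 1 or more matches and 0.635% held 3 or more. The windows of CDH2 and VIM held 0. Of the 7 windows of ZEB1, 1 held 3 and is printed because it holds the most, with the E-boxes in capitals.
ZEB1 window, chr10:31318966-31319265, plus strand: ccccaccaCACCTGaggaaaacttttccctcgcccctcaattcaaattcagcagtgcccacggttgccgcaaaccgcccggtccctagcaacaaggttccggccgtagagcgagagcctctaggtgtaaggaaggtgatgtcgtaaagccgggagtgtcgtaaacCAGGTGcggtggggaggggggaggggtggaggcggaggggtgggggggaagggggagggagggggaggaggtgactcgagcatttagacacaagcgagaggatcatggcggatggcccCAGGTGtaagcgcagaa
Binding was not measured here.

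For each of the 6 genes, 8 libraries per arm were also compared by an exact permutation test (two-sided), which gave p = 0.0001554 for CDH2, VIM and ZEB1, the smallest it can give. The same exact permutation test gave p = 0.00233 for SNAI2, p = 0.0256 for SNAI1 and p = 0.0922 for CDH11, unadjusted. It takes the 16 libraries as independent, although they come from 4 clones. With the clone as the unit, 2 against 2, the smallest exact p is 0.333. With reads summed per clone, edgeR called 4 of the 6 genes, CDH2, VIM, SNAI2 and ZEB1, against 28.8% of all genes. The edgeR adjusted p was 0.00808 for CDH2, 0.0112 for VIM and 0.0189 for ZEB1. For SNAI2 it was 0.0491, just under the threshold.

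**Figure D2:**
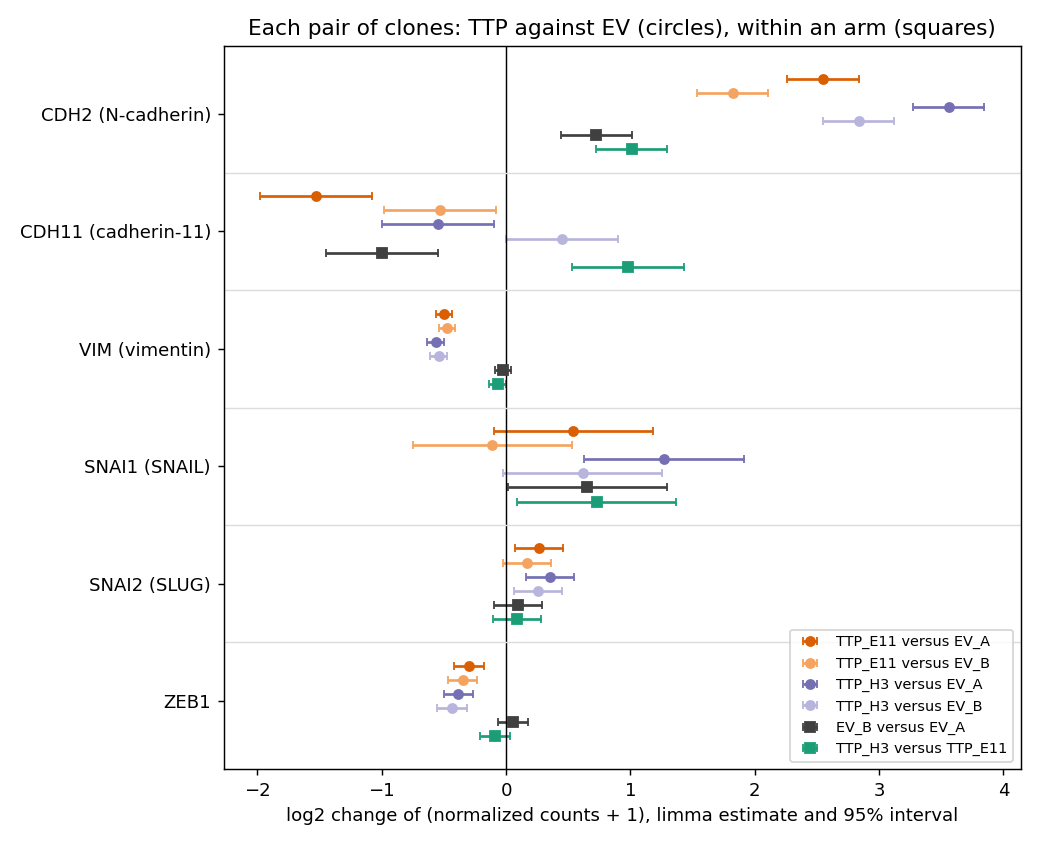
Log2 changes of the 6 genes (horizontal axis, limma estimates with 95% intervals) for each TTP clone against each EV clone (circles) and for the contrasts within an arm (squares). For VIM and ZEB1 the circles lie together below 0 and the squares near 0, whereas for CDH11 the squares, at -0.998 and 0.98, lie farther from 0 than 3 of the 4 circles.

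Taken clone by clone, TTP_E11 differed from EV in 5 of the 6 genes (64.6% of all genes), SNAI1 being the exception, and TTP_H3 in 5 of 6 (64.7% of all genes), CDH11 being the exception. The first count was 4 without replicate 4 of EV_B, where SNAI2 missed the threshold (0.20, limma adjusted p = 0.0515), and also without replicate 1, 3 or 4 of TTP_E11. The spread between clones without introduced TTP was read from EV_B versus EV_A. There 2 of the 6 genes passed, CDH2 higher and CDH11 lower in EV_B, where 36.8% of all genes passed (20.2% higher and 16.6% lower). Without replicate 4 of EV_B and replicate 3 of TTP_H3, SNAI2 also passed, higher in EV_B (0.12, limma adjusted p = 0.028). The count was then 3, and it was also 3 without replicate 1 of EV_A. Between the TTP clones 2 passed, CDH2 and CDH11, both higher in TTP_H3, where 11.7% of all genes passed. This count rested on replicate 3 of TTP_H3. That library was outside the range of the other 3 of its clone for 6 of the 6 genes and for 64.0% of all genes, and the corresponding share in the other libraries ran from 38.0% to 62.7%. For CDH2, VIM, SNAI1 and ZEB1 it lay towards the EV level. For SNAI2 it lay past that level, at 831.9 against an EV mean of 889.9. ZFP36 was lowest in that library among those of its clone, at 13337 against 14097 to 15041. Without it, 5 of the 6 genes differed between TTP_H3 and TTP_E11, against 15.2% of all genes: CDH2 by 1.14, CDH11 by 1.21, SNAI2 by 0.22, VIM by -0.12 and ZEB1 by -0.16 (limma adjusted p between 1.25e-07 and 0.0255). With replicate 4 of EV_B left out too, 5 again differed, against 19.2% of all genes. Without replicate 3 of TTP_H3, SNAI2 also met the rule of 4 clone pairs, which makes 4 of 6 against 38.8% of all genes. For SNAI1 the difference between the TTP clones did not pass in that setting (0.85, limma adjusted p = 0.0957). For VIM, SNAI2 and ZEB1 the difference between the TTP clones thus rests on leaving out 1 library. What set the library apart was not tested.

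Levels were compared between genes only per kb of annotated exon, which depends on the gene models of GENCODE 29. In every clone VIM was highest, at 6347 ± 30.5 normalized counts per kb in EV_A and 4294 ± 311 in TTP_H3 (SD, n = 4), followed by SNAI2 at 253.4 ± 2.30 and 327.9 ± 57.2. ZEB1 was at 125.5 ± 6.85 per kb in EV_A and 96.6 ± 11.5 in TTP_H3. CDH11 overlapped ZEB1 in EV_A and in TTP_H3 and lay below it in EV_B and TTP_E11. CDH2 and SNAI1 were lowest and overlapped each other in the EV clones, at 4.85 ± 0.643 and 4.26 ± 1.49 per kb in EV_A, while in the TTP clones CDH2 was above SNAI1 in every library. In TTP_H3 CDH2 reached 59.8 ± 10.6 per kb and its range overlapped that of CDH11.

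Besides CDH2 and CDH11, 2 of 21 other cadherin genes of a chosen list were listed, CDH4 (R-cadherin) and CDH24. Both were higher in TTP, by 0.36 and 0.28 on the log2 scale (adjusted p = 2.27e-13 and 1.01e-05), and both were also higher in EV_B than in EV_A, by 0.73 and 0.30 (adjusted p = 3.96e-15 and 0.00103). Neither passed in all 4 clone pairs, and the mean of CDH4 in TTP_H3, 2778 normalized counts, lay below that in EV_B, 3008. With EV_B alone as control 1 of these 2 was higher, and with reads summed per clone 0 were (edgeR). CDH4 was the most abundant of the 4 per kb in each clone, holding 48.2 ± 0.370% and 64.0 ± 1.87% of their summed level in EV_A and EV_B and 64.7 ± 1.58% and 53.5 ± 1.63% in TTP_E11 and TTP_H3 (SD, n = 4). The share of CDH2 was 0.953 ± 0.134% in EV_A and 1.27 ± 0.145% in EV_B, and 4.32 ± 0.164% in TTP_E11 and 8.42 ± 1.17% in TTP_H3. CDH11 held 26.05 ± 2.43% in EV_A and 10.5 ± 2.12%, 6.78 ± 0.333% and 13.1 ± 2.97% in EV_B, TTP_E11 and TTP_H3. N-cadherin thus remained a minor share of the listed cadherin RNA in the TTP clones despite its rise.

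**Figure D3:**
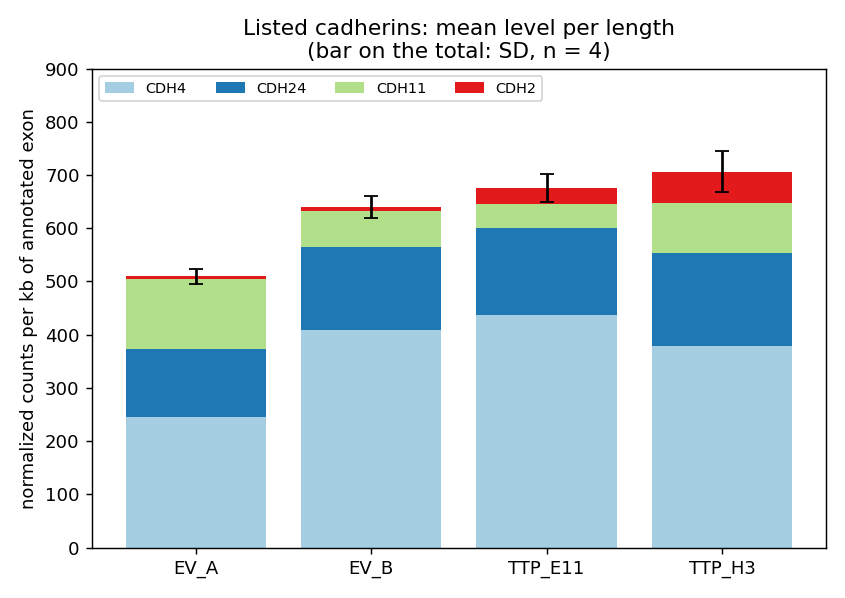
Mean normalized counts per kb of annotated exon (vertical axis) of the 4 listed cadherin genes, stacked for each clone (horizontal axis), with the SD of the total (n = 4). The CDH2 segment grows from 4.85 per kb in EV_A to 59.8 in TTP_H3, and CDH4 is the largest segment in each clone.

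The lists that follow are read against the shares over all genes, 35.4% higher and 34.6% lower in TTP versus EV, or 19.0% and 19.5% in all 4 clone pairs. Counts with reads summed per clone are given as the edgeR counts. Of 20 other EMT transcription factor genes 13 were listed; in TTP 4 were higher and 5 lower, near the shares of all genes (median log2 change -0.08, against 0.0007 over all genes). The edgeR counts were 2 and 2. FOXQ1, a forkhead factor, fell from 492.4 ± 9.88 (EV_A) and 257.9 ± 42.5 (EV_B) normalized counts to 74.2 ± 2.15 (TTP_E11) and 92.8 ± 5.72 (TTP_H3), means ± SD over 4 libraries in this order for each gene that follows (log2 change -2.08, adjusted p = 2.45e-22), and it was also lower in EV_B than in EV_A, by a log2 change of -0.95 (adjusted p = 9.05e-09). SOX9 fell from 3370.4 ± 213 and 3085 ± 164 to 2287 ± 69.8 and 2126 ± 191. FOXC1 rose from 503.7 ± 42.5 and 555.6 ± 28.4 to 767.5 ± 36.6 and 702.2 ± 58.0. ZEB2, the close relative of ZEB1, had a log2 change of -0.21 (adjusted p = 0.0025) but did not pass in all 4 clone pairs.

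Among 27 epithelial adhesion and identity genes, the class that SNAIL and ZEB proteins are known to repress, 18 were listed. In TTP 9 were higher and 4 lower, with a median of 0.15, against 35.4% and 34.6% of all genes. In all 4 clone pairs 4 were higher and 1 lower, against 19.0% and 19.5%. The edgeR counts were 2 higher and 1 lower, and with EV_B alone as control 1 was lower. MARVELD2, which encodes tricellulin of the tight junction, rose from 59.6 ± 8.16 and 61.6 ± 13.3 to 124.2 ± 13.9 and 109.5 ± 11.99. OCLN (occludin) rose from 38.3 ± 2.43 and 56.6 ± 13.9 to 77.6 ± 7.21 and 82.7 ± 10.9, and CDS1, a lipid enzyme of this list, rose by 0.48 on the log2 scale. CLDN4 (claudin-4) went the other way, from 2815 ± 100 and 2406 ± 165 to 1259 ± 54.3 and 1396 ± 230. Between EV_B and EV_A 4 of these genes were higher and 5 lower.

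Catenins and other adaptors tie cadherins to actin, and 12 of 15 were listed, 7 higher and 4 lower in TTP (median 0.08), against 35.4% and 34.6% of all genes. The edgeR counts were 2 and 1, and with EV_A alone as control 4 were higher. CTNNB1 (β-catenin), which binds the tail of N-cadherin, fell by 0.20 on the log2 scale (log2 change -0.20, adjusted p = 5.2e-09), from 8961 ± 188 and 8755 ± 298 to 7976 ± 120 and 7472 ± 361. ARVCF, a catenin of the p120 family, rose from 48.4 ± 10.6 and 49.5 ± 5.68 to 115.5 ± 6.54 and 129.8 ± 11.7. NECTIN1, an adhesion receptor beside cadherins, rose by 0.72, and AFDN (afadin), which links nectins to actin, fell by 0.31.

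Vimentin belongs to the intermediate filament family, and 9 of 14 genes chosen around it, outside the keratins, were listed. Plectin, which links such filaments and is not a member of the family, is among the 9 and among those counted as lower. In TTP 5 were lower and 1 was higher (median -0.20), against 34.6% and 35.4% of all genes, and the 5 were lower in all 4 clone pairs, against 19.5%. The number higher was 0 in the 2-group model, with EV_A alone as control and by edgeR. LMNA (lamin A/C) fell from 21478 ± 206 and 19869 ± 786 to 12712 ± 451 and 13415 ± 1195, and LMNB1 fell from 3779.9 ± 27.6 and 4021 ± 96.9 to 2594 ± 21.2 and 2500.1 ± 105. PLEC (plectin), which cross-links vimentin filaments, and SYNM (synemin), which assembles with vimentin, had log2 changes of -0.76 and -0.62. EV_B versus EV_A had 2 of the 9 higher and 4 lower.

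SNAIL and ZEB proteins repress through partner complexes, and 18 of 18 chosen corepressor genes were listed, 4 higher and 11 lower in TTP (median -0.20), against 35.4% and 34.6% of all genes, with 10 lower in all 4 clone pairs, against 19.5%. The edgeR counts were 2 higher and 6 lower. LOXL2, a lysyl oxidase-like enzyme known to bind SNAIL, fell from 7923 ± 60.3 and 5622 ± 316 to 3752 ± 98.8 and 3539 ± 439. AJUBA, a LIM protein, fell from 3661 ± 86.9 and 4406 ± 92.9 to 2629 ± 55.6 and 2902 ± 99.2, and EZH2 and SMARCA4, chromatin enzymes, had log2 changes of -0.38 and -0.33. In EV_B versus EV_A, 9 of the 18 were higher and 1 was lower. SNAIL protein is controlled by phosphorylation and ubiquitin, and of 19 genes chosen for this 17 were listed, 8 higher and 6 lower (median 0.08), against 35.4% and 34.6% of all genes. The edgeR counts were 3 and 1. USP27X, a deubiquitinase known to stabilise SNAIL, rose from 93.8 ± 16.9 and 101.1 ± 10.5 to 185.9 ± 7.14 and 182.3 ± 11.2, while FBXL14, a ligase subunit that marks SNAIL for degradation, fell from 238.2 ± 4.36 and 238.3 ± 15.5 to 164.1 ± 9.86 and 156.8 ± 24.6. BTRC, another ligase subunit, and GSK3A, a kinase, rose by 0.37 and 0.36. The kinase gene GSK3B went the other way (log2 change -0.26, adjusted p = 9.67e-07) and was lower in all 4 clone pairs.

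**Figure D4:**
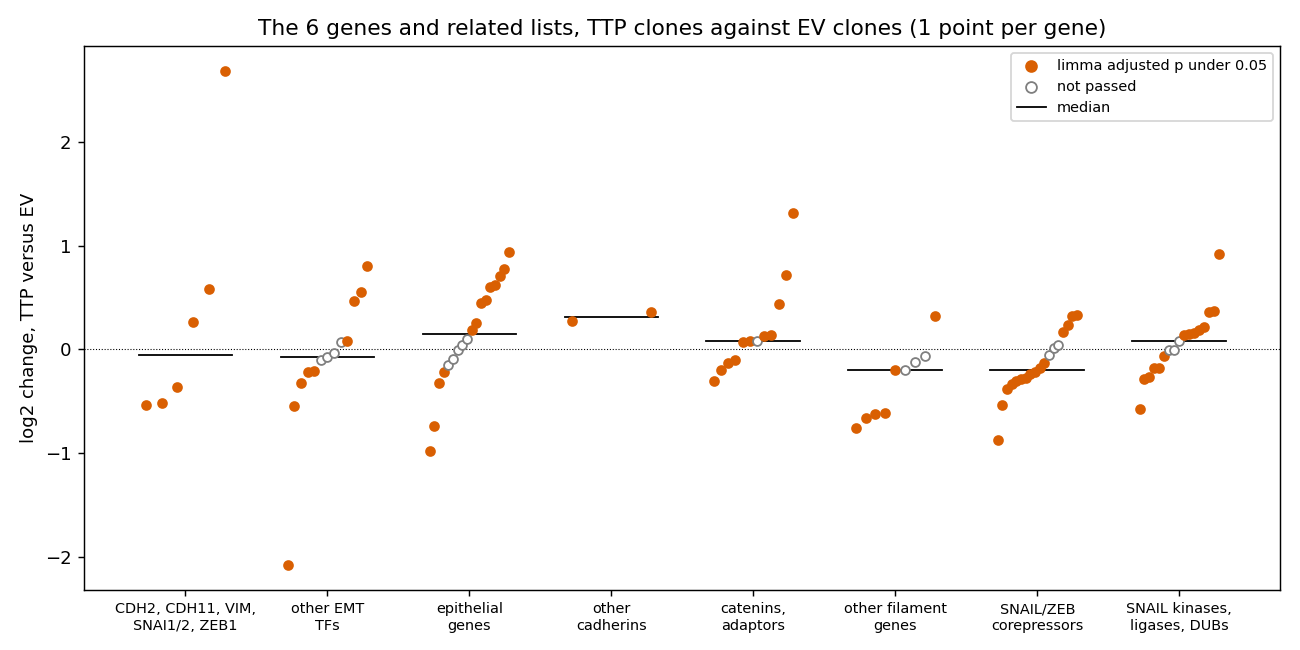
Log2 change in TTP versus EV (vertical axis) of the 6 genes and of the members of 7 related lists (horizontal axis), 1 point per gene, filled where the limma adjusted p was under 0.05, with the median as a line. Changes lie on both sides of 0 in every list except the 2 other cadherins, and the medians run from -0.20 to 0.32.

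For each of the 6 genes, the genes with the most similar pattern were sought by Pearson's r of log2(value + 1) over the 16 libraries, among 11878 genes with a mean of at least 50 normalized counts. The 4 clones give most of the variation, so these values are a description. VIM was most like CDKN2D (0.994), PRNP (0.993) and DLD (0.992), and 1301 genes had an r above 0.9 with it. CDH2 was most like SERTAD1 (0.987), MAP2K3 (0.986) and SNAPC2 (0.984), with 902 genes above 0.9. ZEB1 had 364 such genes, led by ARL6IP6 (0.963), with ICK (0.958) also among the nearest. CDH11 had 14, led by MEST (0.956), DPP4 (0.950) and GGT1 (0.949), and SNAI2 had 8, led by FBN1 (0.952), MBOAT7 (0.939) and FRAS1 (0.934). SNAI1 had 0, the nearest being CCDC137 (0.893), EMILIN2 (0.882) and CEP164 (0.881).

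Vimentin, N-cadherin and cadherin-11 are also made by stromal cells, so markers of other cell types are given beside them. Of 7 fibroblast markers 5 were listed, and their sum was 372.9 to 750.9 normalized counts in EV and 421.0 to 731.8 in TTP libraries, so the arms overlapped. Of 6 leukocyte markers 3 were listed, with sums of 79.0 to 181.1 in EV and 58.9 to 100.2 in TTP. Among them CSF1R was lower in TTP (log2 change -1.17, limma adjusted p = 1.74e-09), and CD14 and CD68 did not pass. Of 5 endothelial markers only KDR was listed, at 33.3 to 55.5 in EV and 95.1 to 164.3 in TTP libraries. All its TTP libraries were thus above its EV libraries, as held for CDH2 and for 15.6% of all genes. Within the TTP arm the order was the reverse of CDH2, with KDR averaging 153.0 in TTP_E11 and 104.5 in TTP_H3. Of 5 epithelial luminal markers 2 were listed, with sums of 3912 to 7319 in EV and 4411 to 5261 in TTP, and both had lower averages in TTP: EPCAM by a log2 change of -0.22 (limma adjusted p = 0.00246) and KRT19 by -0.25 (limma adjusted p = 0.00365), although KRT19 was at 4691 in EV_B against 4714 and 4736 in the TTP clones. The part of these markers in the results was not tested.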

How the data were processed

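RNA of 16 cultures was sequenced. The build GRCh38 and the tools DESeq2, featureCounts, Trimmomatic 0.36, Subread 1.5.2 and STAR 2.5.2b come from the submitters' processing notes, which give no order; annotation and strand setting were not stated. Each of 14857 genes has a deposited normalized signal in every library. By its values this is a read count divided by 1 size factor: every value was a whole number of steps of 1 size within its library, to a tolerance of 0.001, although in replicates 1 and 3 of TTP_H3, where 1 read was worth 1.009 and 0.9975, this is a weaker check. Per the file headers, further deposited columns hold the authors' own TTP versus EV comparison as a log2 change, a p-value and its adjusted form. Recovered reads on listed genes were 14380767 to 22066098 per library, which is not the full depth.

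The test was limma 3.58.1 (R 4.3.3, trend, robust) on log2(value + 1), with 4 clone groups in 1 fit over all genes. It had no filter on low values and a threshold of 0.05, and the code was tested on simulated data. Those data held no differences between clones of an arm, and changes were added only to genes with a mean of at least 50. They therefore do not bear on clone differences or on genes as low as SNAI1. The recovered reads were also tested with DESeq2 1.42.0 and edgeR 4.0.16. Further alternatives were other scalings, pseudocounts of 0.1 and 5, a filter at a mean of 50, a 2-group model, reads summed per clone, single EV clones as control, a replicate block and leaving out libraries. Replicate numbers did not pair the samples by the check given in the closing section. GENCODE 29 held 14820 of the listed genes. Named genes were the 6 genes, up to 4 per list that passed in all 4 clone pairs with the largest change, ZEB2, CTNNB1, ZFP36, and the 3 most similar genes to each. CDH4, CDH24, GSK3B, the antisense genes and the marker genes were named after their values were seen. Some genes that the rule names are not reported here. The genes and lists were chosen with earlier results of these data known.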

Additional observations from a re-analysis of the deposited data

Results flagged for a closer look

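CDH11 in replicate 3 of TTP_H3 was flagged as a library far from the others of its clone, at 755.1 normalized counts against 1389.8 to 1448 in the other 3. The gap was 0.916 of the clone's range, above the critical value of Dixon's test. Of 24 groups of 4 libraries looked at, 1 was flagged, and chance flags about 1 in 20.

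The differences of TTP_E11 and of TTP_H3 from EV were themselves different for CDH2 and CDH11, by the limma contrast of the TTP clones. For CDH2, TTP_H3 was above TTP_E11 by 1.01 on the log2 scale (adjusted p = 5.46e-06), and all 4 TTP_H3 libraries were above all 4 of TTP_E11. For CDH11 the contrast was 0.98 (adjusted p = 0.00861), and 1.21 (adjusted p = 0.000192) without replicate 3 of TTP_H3.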

How the results depend on the processing

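Under 29 other settings CDH2, VIM and ZEB1 kept their direction and passed in each, with log2 changes of 2.33 to 3.05, -0.55 to -0.44 and -0.40 to -0.29. With EV_B alone as control 3 of the 6 genes passed, and CDH11 (-0.041, limma adjusted p = 0.876), SNAI1 (0.25, 0.411) and SNAI2 (0.21, 0.0626) did not; the cause was not tested. CDH11 also did not pass in the 2-group model (-0.54, 0.124), nor with reads summed per clone (-0.53, edgeR adjusted p = 0.382), where SNAI1 did not pass either (0.67, 0.248) and fewer samples are compared. Leaving out 1 library at a time gave SNAI1 changes of 0.52 to 0.68, with limma adjusted p up to 0.0505. It gave 2 to 5 genes that differed between TTP_H3 and TTP_E11. Without both libraries that stood apart, replicate 4 of EV_B and replicate 3 of TTP_H3, a choice made after seeing the data, this number was 5. None of the 6 genes changed sign in TTP versus EV; CDH11 in TTP_H3 versus EV did, from -0.05 to 0.18 without replicate 3 of TTP_H3 and to 0.09 without both libraries. SNAI1, below a mean of 50, had no value under that filter. The replicate block changed no call, with log2 changes of 2.69 for CDH2, -0.52 for VIM and -0.37 for ZEB1, and libraries of the same number in different clones had correlated deviations of -0.0883 to 0.0962, so the numbers did not pair them. Of 25 genes picked from the lists by the naming rule, 744 of 750 results under alternatives kept their call and direction and 6 lost the threshold, with 0 reversed. Of the list counts, 17 moved by more than 1.5 times under an alternative, 12 of them with reads summed per clone, such as epithelial genes higher from 9 to 2, corepressors lower from 11 to 6 and genes acting on SNAIL proteins lower from 6 to 1. SNAI1 rests on 6 to 26 reads per library, and the counting interval of its read ratio was wide, at 1.18 to 2.16. How small a difference could be detected at this depth was not tested.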
